A study of Homo sapiens with 52 samples.

Results

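The ribosomal proteins of the cytosolic ribosome were followed at the mRNA level in senescing WI-38 cells, a line of normal human lung fibroblasts. The members were all genes whose symbol is RPL or RPS followed by a number, with the suffix A or X where the symbol has it, together with RPLP0, RPLP1, RPLP2 and RPSA. This rule found 77 genes of the 59408 listed, 46 of the large and 31 of the small subunit and left out pseudogenes. They lie on 21 chromosomes, with 12 of them on chromosome 19. Of these, 75 members had a normalized count of 10 or more when averaged over the groups and were tested, 46 of the large and 29 of the small subunit. The other 2 lay below that level.

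All cells carried the wild-type genotype. Cells were exposed for 24 h to 0.0090% SDS, a detergent that damages the plasma membrane (PMD-Sen), to 75 mM KCl, which lets calcium enter (Ca2+-Sen), or to 250 nM doxorubicin (DXR), which damages DNA (DDR-Sen). They were collected at the end of the exposure (day 0), on each of days 1 to 4, and on days 6, 8 and 16 after the wash. Replicatively senescent cells (RS) had been passaged until division ceased, and untreated young cells were the control of all comparisons. Each of these 26 groups had 2 libraries from 1 cell line. The methods call the samples independent without saying whether they were separate cultures, so the p-values measure the spread between these libraries. Only 1 untreated group was used here, so time in culture after the treatment and the effect of the treatment cannot be told apart.

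A ribosome is built from a small subunit, which decodes the mRNA, and a large subunit, which joins the amino acids, and each holds a single copy of nearly all of its proteins. The genes of these proteins are transcribed at high and similar rates, and their mRNAs begin with a run of pyrimidines, the terminal oligopyrimidine (TOP) sequence. Through it the kinase mTOR sets how fast they are translated. Senescent fibroblasts are large cells with high protein synthesis and secretion, and unassembled RPL5 and RPL11 bind MDM2 and so stabilize p53, which makes the balance of these proteins of interest in senescence.

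The start sites of 8 members that the results turn on are shown with 15 bases on either side of the RefSeq start (GRCh38.p14), because the pyrimidine run is the feature these genes share in sequence. Capitals mark a run of at least 5 C or T that begins with C within 5 bases of the start.
RPSA: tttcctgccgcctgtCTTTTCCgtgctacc
RPLP0: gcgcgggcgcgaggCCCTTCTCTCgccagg
RPLP2: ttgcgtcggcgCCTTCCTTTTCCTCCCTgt
RPS6: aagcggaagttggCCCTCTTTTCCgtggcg
RPL3: gtaaggccgaccggCCTCTaccggcgggat
RPS16: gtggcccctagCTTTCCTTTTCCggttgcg
RPS19: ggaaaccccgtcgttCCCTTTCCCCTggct
RPS27A: taaggagtgacacacaagacccagactctt
They lie at chr3:39406705-39406734 (RPSA, plus strand), chr12:120201097-120201126 (RPLP0, minus strand), chr11:809952-809981 (RPLP2, plus strand), chr9:19380222-19380251 (RPS6, minus strand), chr22:39319609-39319638 (RPL3, minus strand), chr19:39435935-39435964 (RPS16, minus strand), chr19:41860240-41860269 (RPS19, plus strand) and chr2:55231888-55231917 (RPS27A, plus strand). In RPS27A no such run was found in the window. Searched on the coding strand only, the run was present in 50 of the 62 members with an entry (80.6%), in 11 of 13 other TOP translation genes and in 21.1% of all 27305 promoters.

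The values are normalized counts, and where a pair of libraries is given the deeper comes first. The means and fold changes deposited for each pair of groups allowed whole reads to be recovered for both libraries, called here the deeper and the shallower of a pair, in every group but DDR-Sen day 1, where 34 members were recovered. Recovered genes held 17507197 and 14236314 reads in the untreated libraries and up to 52283787 elsewhere, with a median of 27242648. All 8 fibroblast markers, among them COL1A1, VIM and THY1, were at 1139 or more in every group, while EPCAM, CDH1, KRT5, CDH5, PTPRC and CD3E stayed at or below 19.7. Of the remaining endothelial and blood markers, PECAM1 ranged from 2.02 to 108, VWF from 22.5 to 72.1 and CD14 from 12.2 to 203, and their part in the results was not tested. The libraries of PMD-Sen day 16 stood apart in the members, with medians of −0.25 (deeper) and 0.18 (shallower) on the log2 scale against untreated cells, so the counts of members called on that day are also given without each library.

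The mRNAs of ribosomal proteins were lower in RS and on day 16 of DDR-Sen. In RS 48 of the 75 members fell and 0 rose, where 11.5% of all 14898 tested genes fell and 11.6% rose (Wald test, Benjamini-Hochberg adjusted p below 0.05, as for all calls against untreated cells). On day 16 of DDR-Sen 53 members fell and 0 rose, where 16.7% of all genes fell and 13.2% rose. The median log2 fold change of the members was −0.46 in RS and −0.44 on day 16 of DDR-Sen, while that of all tested genes was 0.01 and −0.01. Limma on the single libraries gave 62 falling and 0 rising members in RS, where 24.3% of genes fell, and shared all 48 calls. On day 16 of DDR-Sen limma gave 60 falling members, 51 of them shared, where 25.6% of genes fell. Without the deeper DDR-Sen library of that day, 32 members fell. The members' median was below zero in each library, at −0.38 and −0.58 in the RS libraries and at −0.52 and −0.29 in those of DDR-Sen day 16. The values are shares of the RNA in bulk, and the amount per cell was not measured. Fewer cells with these mRNAs, less of them per cell and more of other RNA cannot be told apart.

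**Figure D1:**
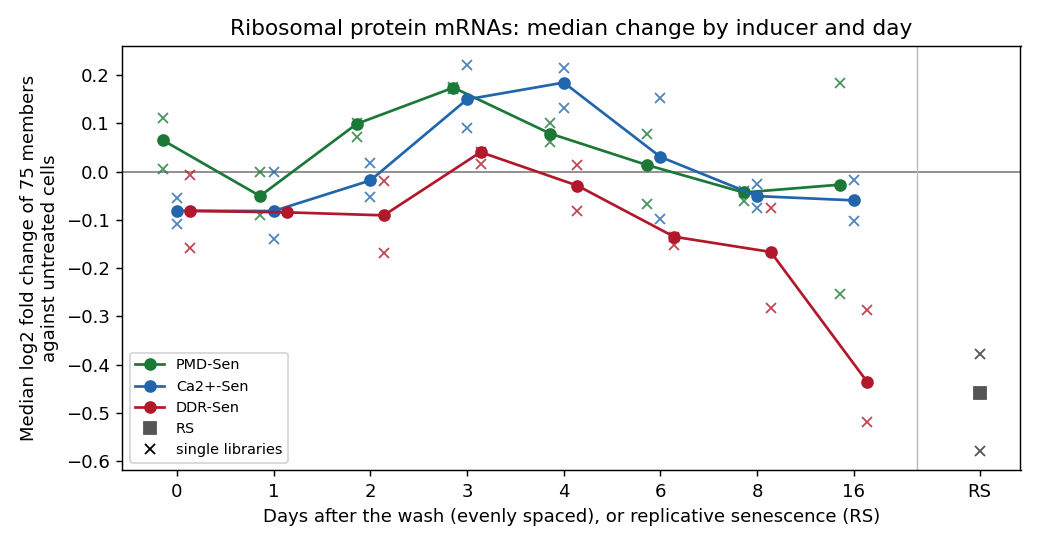
Median log2 fold change of the 75 tested members against untreated cells, by day after the wash (days evenly spaced) and in RS; filled symbols are the deposited fold changes of a group and crosses the medians of its single libraries, which are not drawn for DDR-Sen day 1. DDR-Sen moved from −0.08 on day 0 to −0.44 on day 16, near the −0.46 of RS, while PMD-Sen and Ca2+-Sen stood above zero on days 3 and 4 and close to zero on day 16. The PMD-Sen day 16 libraries lay on either side of zero, at −0.25 and 0.18.

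The share of all normalized counts that fell to the members, another view of the same values, moved likewise. It was 2.77% in untreated cells, 1.95% in RS and 2.15% on day 16 of DDR-Sen. PMD-Sen and Ca2+-Sen had shares of 2.74% and 2.64% on day 16. Counted as reads of recovered genes, the untreated libraries stood at 2.95% and 3.02%. Both RS libraries (2.29% and 1.92%) and both DDR-Sen day 16 libraries (2.16% and 2.43%) lay below them. The PMD-Sen day 16 libraries lay on either side, at 2.59% and 3.47%.

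**Figure D2:**
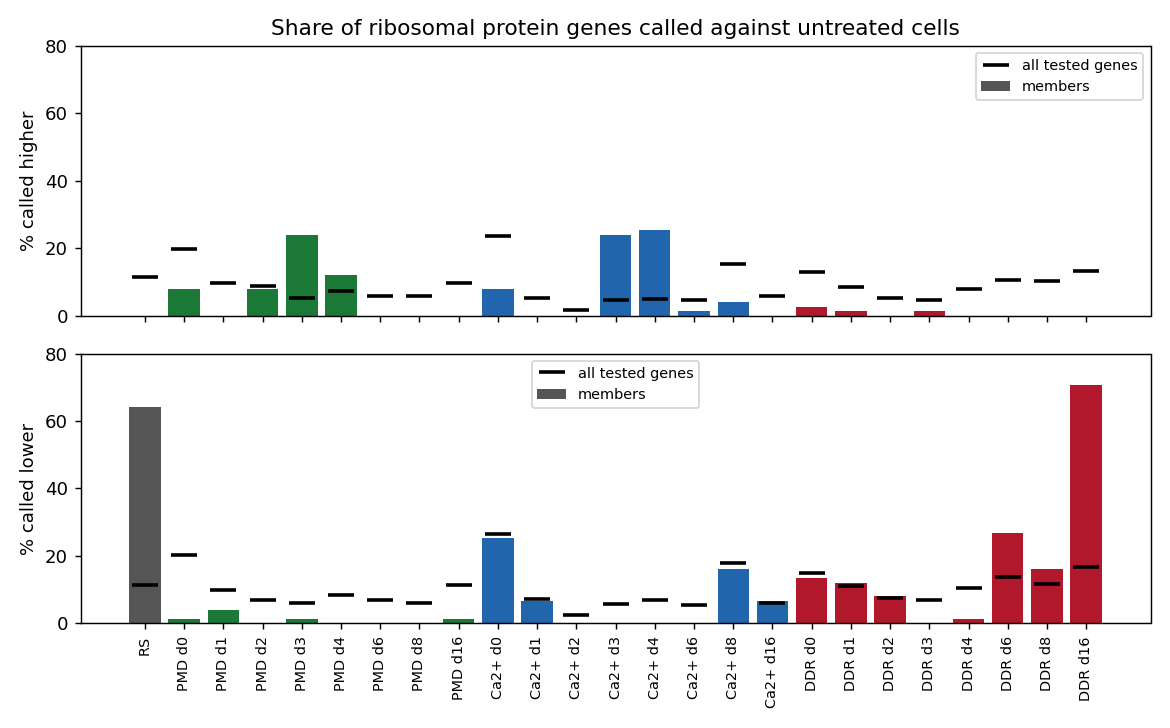
Percentage of the 75 tested members called higher (top) or lower (bottom) than untreated cells in each group, with black lines at the percentage of all 14898 tested genes called in the same direction. The bars of lower members are longest in RS (48 members) and on day 16 of DDR-Sen (53), and the bars of higher members pass the line of all genes on days 3 and 4 of PMD-Sen and Ca2+-Sen.

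The fall in RS was spread over both subunits. RPSA, a small-subunit protein also known as the laminin receptor, was at 17322 and 17792 normalized counts in the untreated libraries and at 9188 and 9050 in RS. Its log2 fold change of −0.95 ± 0.13 (SE, 2 libraries a group, adjusted p = 2.39e-11) was the lowest of the members with steady counts and a mean of at least 100. RPS16, whose tail reaches the decoding site, was at 6288 and 6380 in untreated cells and fell to 4001 and 3612 (−0.73 ± 0.15, adjusted p = 8.69e-06). The RS libraries of both genes lay wholly below the untreated ones. RPL36A, with few reads, went from 86.1 and 70.5 to 36.2 and 29.7 (−1.25 ± 0.42, adjusted p = 0.0158). It shares 8.40% of its exon bases with the readthrough gene RPL36A-HNRNPH2, and its pseudogenes reached 14.6% of its level. The pseudogenes of RPSA also reached 14.6% of the level of RPSA, so its reads may be shared with them.

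Members known for other roles, and RPL3 of the catalytic centre, fell too. RPL5 was at 11298 and 12051 in untreated and at 8866 and 7476 in RS libraries (−0.51 ± 0.16, adjusted p = 0.0107). RPL11, which joins RPL5 and the 5S rRNA in a particle before assembly, changed by −0.60 ± 0.17 (adjusted p = 0.00401). RPS6, the ribosomal substrate of S6 kinase, went from 12431 and 13006 to 9149 and 8193 (−0.55 ± 0.15, adjusted p = 0.00156). RPS27A, which is made as a fusion with ubiquitin, changed by −0.60 ± 0.17 (adjusted p = 0.00433). RPS27 had a smaller fall of −0.43 ± 0.16 (adjusted p = 0.0331), which limma lost without the shallower RS library or the shallower untreated library. RPL3, which reaches toward the site of peptide bond formation, changed by −0.47 ± 0.13 (adjusted p = 0.00295).

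Of the stalk, which recruits elongation factors to the large subunit, RPLP0 fell in RS. This protein, the base of the stalk, was at 27802 and 27470 in untreated cells and at 18566 and 16178 in RS (−0.67 ± 0.15, adjusted p = 0.000118). Its partners did not pass the test. RPLP1 had a log2 fold change of −0.24 ± 0.18 (adjusted p = 0.365) and RPLP2 of −0.20 ± 0.15 (adjusted p = 0.387). RPL22, a protein at the periphery of the large subunit, was at 2165 and 2230 in untreated and 1945 and 2185 in RS libraries, which overlapped (−0.09 ± 0.16, adjusted p = 0.753). The difference between these members was not tested.

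**Figure D3:**
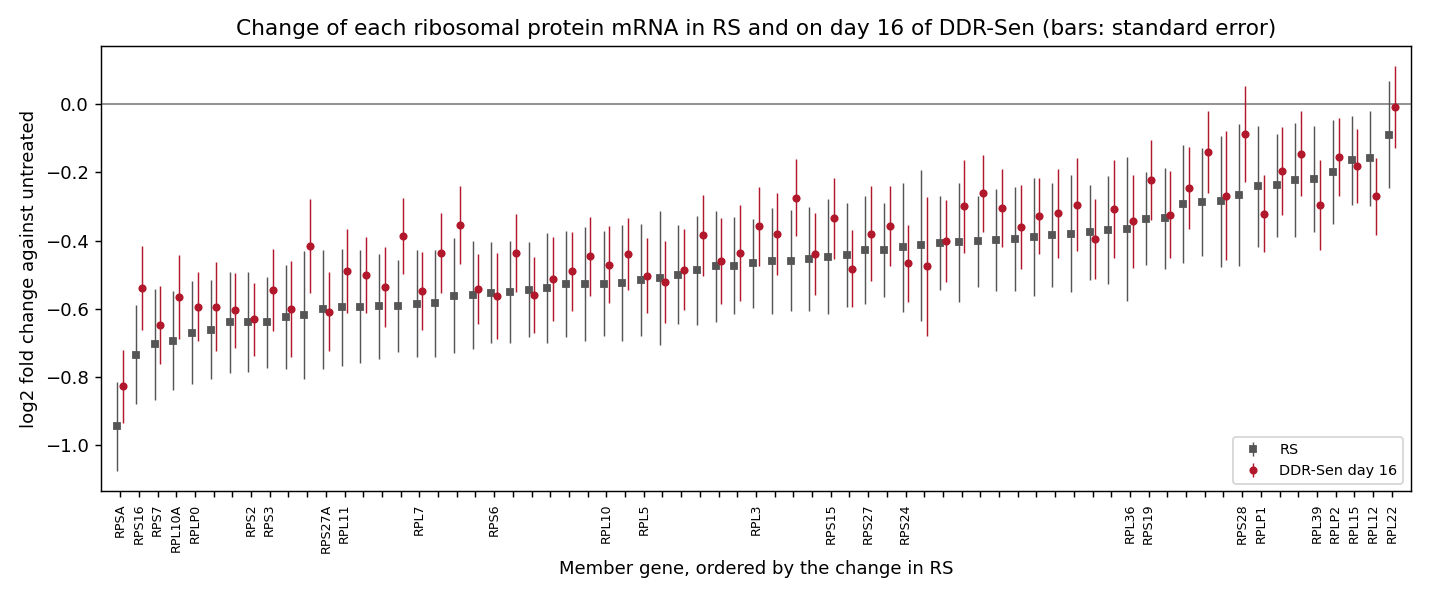
Log2 fold change against untreated cells with its standard error for the 69 members whose normalized counts averaged 100 or more and with libraries of a group never more than 4-fold apart, ordered by the change in RS (squares) beside DDR-Sen day 16 (circles), with names for the genes described in the text. All 69 lie below zero in both, from −0.95 (RPSA) to −0.09 (RPL22) in RS and from −0.83 to −0.01 on day 16 of DDR-Sen; both comparisons share the untreated libraries.

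In DDR-Sen the fall came late. On day 0, 2 members rose and 10 fell, where 12.9% of all genes rose and 14.9% fell, and the median was −0.08. On day 1, 1 rose and 9 fell, where 19.5% of genes were called in either direction. On day 2, 0 rose and 6 fell (12.7% of genes called), on day 3, 1 rose, RPS18 with unsteady counts, and 0 fell (11.6%), and on day 4, 0 rose and 1 fell (18.4%). Medians on these 4 days ranged from −0.09 to 0.04. On day 6, 20 members fell, where 13.8% of all genes fell, with a median of −0.13. On day 8, 12 fell, where 11.8% of genes fell, with a median of −0.17. Neither day had a member that rose. Both counts depended on single libraries. On day 6 limma gave 12 falling members, a share of the 75 below the 19.5% of all genes that it called lower, and between 3 and 6 without 1 library of DDR-Sen or of the untreated cells. On day 8 limma called 2 members lower without the deeper DDR-Sen library or without the shallower untreated library, and 19 without the shallower DDR-Sen library.

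The course of RPSA was not that of all members, 45 of which had a fold change above zero on day 3 of DDR-Sen. RPSA had the largest day 16 fall of those with steady counts and a mean of at least 100. Its DDR-Sen libraries were at 15021 and 17033 on day 0, at 15767 and 16832 on day 3, at 13202 and 14570 on day 6, at 12160 and 13657 on day 8 and at 9409 and 10371 on day 16. All of these lay below the untreated 17322 and 17792, and both day 16 libraries lay below every earlier one. On day 16 the log2 fold change of RPSA was −0.83 ± 0.11 (adjusted p = 2.67e-13). Against day 0 of DDR-Sen itself it was lower by −0.70 ± 0.15 (difference of fold changes over both standard errors, adjusted p = 7.97e-05). Between these days 17 members fell and 0 rose, where 6.44% of all genes fell and 6.21% rose, with a median difference of −0.34. By limma 49 members fell, where 22.9% of genes fell. In the main test of a difference the untreated error enters through both fold changes, which makes it cautious. Limma gave 58 without the shallower DDR-Sen day 16 library, 18 without the deeper and 24 without the shallower day 0 library.

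Other members that fell on day 16 of DDR-Sen had similar values. RPS7, a small-subunit protein, was at 4284 and 4787 against 6861 and 7359 in untreated cells (−0.65 ± 0.11, adjusted p = 2.22e-07). RPLP0 was at 17743 and 18885 (−0.59 ± 0.10, adjusted p = 8.61e-08). RPS2 was at 17805 and 19881, below the untreated 29014 and 29370 (−0.63 ± 0.11, adjusted p = 4.65e-08). It shares 25.6% of its exon bases with AC005363.1, and its pseudogenes reached 37.0% of its level. Those of RPS7 reached 10.7% of the level of RPS7. RPS27A changed by −0.61 ± 0.12 (adjusted p = 1.77e-06), RPS6 by −0.56 ± 0.13 (adjusted p = 7.21e-05) and RPS16 by −0.54 ± 0.12 (adjusted p = 0.000113). RPL5 was at 7849 and 8628 (−0.50 ± 0.11, adjusted p = 4.08e-05), and RPL11 at 5555 and 6564 (−0.49 ± 0.12, adjusted p = 0.000515). All libraries of these genes lay below both untreated ones. RPL3 changed by −0.36 ± 0.12 (adjusted p = 0.00907), a call lost by limma without the deeper DDR-Sen or the deeper untreated library. RPL22 was at 2135 and 2231 and overlapped the untreated libraries (−0.01 ± 0.12, adjusted p = 0.969). RPLP2 had −0.15 ± 0.11 (adjusted p = 0.338).

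**Figure D4:**
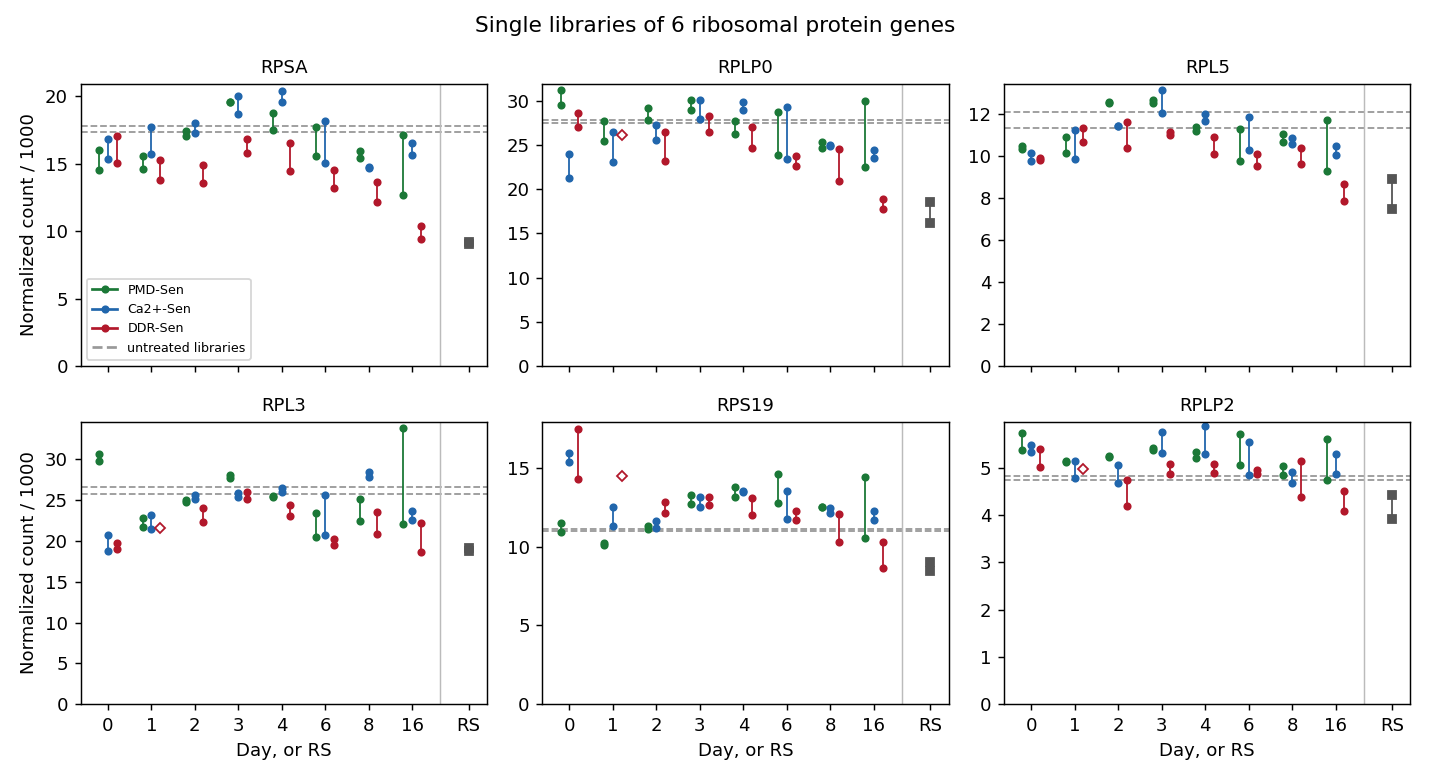
Normalized counts, divided by 1000, of 6 members in the 2 libraries of each group, joined by a line, by day (evenly spaced) and in RS; dashed lines are the untreated libraries, and an open diamond is the group level of DDR-Sen day 1 where its libraries were not recovered. RPSA, RPLP0 and RPL5 on day 16 of DDR-Sen and in RS lie below both untreated libraries, RPS19 stands above them on day 0 of Ca2+-Sen and DDR-Sen, RPL3 is above them on day 0 of PMD-Sen and below them on day 0 of Ca2+-Sen and DDR-Sen, and RPSA and RPL3 have PMD-Sen day 16 libraries far apart.

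On day 16 few members were called after SDS or KCl. In PMD-Sen 0 members rose and 1 fell, where 9.63% of all genes rose and 11.5% fell, and the median was −0.03. The member that fell was RPS9, whose counts are unsteady between libraries of a group. Limma called 23.5% of all genes lower on day 16 of PMD-Sen. The PMD-Sen libraries of that day disagreed, and limma called 31 members lower without the shallower of them, 2 without the deeper and 5 with both, 5 without the deeper untreated library and 3 without the shallower. For RPL3 the PMD-Sen libraries were at 22061 and 33804, on either side of the untreated 26639 and 25682, and limma called RPL3 higher without the deeper library (0.37). For RPSA they were at 12719 and 17155, both below the untreated libraries (−0.23 ± 0.17, adjusted p = 0.368), and limma called RPSA lower without the shallower library (−0.46). In Ca2+-Sen 0 members rose and 5 fell on day 16, where 5.79% of all genes rose and 6.08% fell, and the median was −0.06. By limma 8.25% of all genes fell. RPS3, which lies where the mRNA enters the ribosome, was at 13276 and 12174 against 15049 and 15307 in untreated cells (−0.25 ± 0.07, adjusted p = 0.00722). RPL7 of the large subunit, whose pseudogenes reached 14.8% of its level, was at 14091 and 13580 against 15790 and 16663 (−0.23 ± 0.07, adjusted p = 0.0131). Limma called 1 of the 75 lower there and neither of these, and 0 without the deeper Ca2+-Sen or the deeper untreated library.

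The difference between the inducers on day 16 was itself tested. Between DDR-Sen and Ca2+-Sen 14 members were lower in DDR-Sen and 0 higher, where 4.42% of all genes were lower and 1.96% higher, with a median difference of −0.35. With library totals as size factors 4 were lower, and with no minimum level 7. Limma gave 55 lower members, where 17.3% of genes were lower, 9 without the deeper DDR-Sen library, 60 without the shallower, 17 without the deeper Ca2+-Sen library and 41 without the shallower. RPSA was at 16513 and 15628 in Ca2+-Sen and at 9409 and 10371 in DDR-Sen, a difference of −0.70 ± 0.13 (adjusted p = 2.94e-06). The libraries of both inducers were fully separated.

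Between DDR-Sen and PMD-Sen the main test called 0 members lower and 0 higher on day 16, where 0.175% of all genes were lower and 0.0201% higher, though the median difference was −0.39. Limma called 45 members lower, where 3.51% of genes were lower. That number was 64 without the deeper PMD-Sen library, 50 without the shallower DDR-Sen library, 1 without the deeper DDR-Sen library and 0 without the shallower PMD-Sen library, so this difference rests on single libraries. Between Ca2+-Sen and PMD-Sen 0 members were higher and 0 lower, where 1.97% of all genes were higher and 0.745% lower, and limma gave 1 higher, or 16 lower without the deeper PMD-Sen library.

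On days 3 and 4 members rose after SDS and after KCl. In PMD-Sen 18 members rose on day 3, where 5.42% of all genes rose, and 9 rose on day 4, where 7.31% rose. In Ca2+-Sen 18 rose on day 3, where 4.77% of all genes rose, and 19 on day 4, where 4.98% rose. Medians were 0.17 and 0.08 in PMD-Sen and 0.15 and 0.18 in Ca2+-Sen, and all 8 libraries had medians above zero, from 0.06 to 0.22. The size was small, and limma called fewer members higher. It gave 10 and 5 of the 75 in PMD-Sen, where 12.1% and 13.2% of all genes rose, and 3 and 8 in Ca2+-Sen, where 8.50% and 10.2% rose, so that the members' share was near or below that of all genes. With any library of a comparison left out, at most 2 members were called. In DDR-Sen the members had medians of 0.04 and −0.03 on these days, the second of which was 0.01 with library totals as size factors, and 1 member, RPS18, rose on day 3 and 0 on day 4.

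RPL15, a core protein of the large subunit, rose in all 4 of these comparisons by the Wald test. By limma it was not called on day 4 of PMD-Sen (adjusted p = 0.0728) or day 3 of Ca2+-Sen (adjusted p = 0.0714). It was at 15337 and 15450 in untreated libraries, at 18298 and 18565 on day 3 of PMD-Sen (0.26 ± 0.08, adjusted p = 0.0136) and at 17740 and 18708 on day 4 of Ca2+-Sen (0.24 ± 0.08, adjusted p = 0.0184). RPS28 went from 2083 and 1925 to 2591 and 2509 on day 3 of PMD-Sen (0.35 ± 0.11, adjusted p = 0.0136) and to 2487 and 2715 on day 3 of Ca2+-Sen (0.37 ± 0.10, adjusted p = 0.00365). Reads of RPS28 may be shared with its pseudogenes, which reached 111% of its level. RPS19, the protein most often mutated in Diamond-Blackfan anaemia, rose on day 4 of PMD-Sen (0.28 ± 0.08, adjusted p = 0.00255) and of Ca2+-Sen (0.29 ± 0.08, adjusted p = 0.0029). RPLP1 rose on day 3 of PMD-Sen (0.25 ± 0.08, adjusted p = 0.0301) and of Ca2+-Sen (0.24 ± 0.08, adjusted p = 0.0154). All the libraries named here lay above both untreated ones.

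At the end of the exposure (day 0) members were called in both directions. By the Wald test the share of members called in each direction was below that of all genes after each inducer. In PMD-Sen 6 members rose and 1 fell, where 19.8% of all genes rose and 20.2% fell, with a median of 0.06. In Ca2+-Sen 6 rose and 19 fell, where 23.6% of all genes rose and 26.5% fell, with a median of −0.08. Left-out libraries brought the falling members of Ca2+-Sen to between 6 (without its deeper library) and 11 by limma, and those of DDR-Sen to 3 or 4. In PMD-Sen 12 members rose with library totals as size factors. Limma gave 3 rising members there, where 28.5% of genes rose, and 0 without the shallower PMD-Sen or the shallower untreated library.

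RPL3 differed between the inducers on day 0. It was at 26639 and 25682 in untreated libraries, at 29710 and 30582 in PMD-Sen, at 18749 and 20708 in Ca2+-Sen and at 19699 and 19055 in DDR-Sen. The falls in Ca2+-Sen (−0.41 ± 0.08, adjusted p = 2.07e-06) and DDR-Sen (−0.43 ± 0.09, adjusted p = 3.27e-05) passed the test, and so did the rise in PMD-Sen (0.20 ± 0.09, adjusted p = 0.0449), though not by limma. DDR-Sen was lower than PMD-Sen by −0.64 ± 0.13 (adjusted p = 5.58e-06), and Ca2+-Sen than PMD-Sen by −0.61 ± 0.12 (adjusted p = 1.71e-06).

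RPS19 and RPS16 split the inducers in other ways. RPS19 was at 11110 and 11013 in untreated, at 10901 and 11522 in PMD-Sen, at 15393 and 15910 in Ca2+-Sen and at 14266 and 17466 in DDR-Sen libraries. It rose in Ca2+-Sen (0.50 ± 0.07, adjusted p = 9.3e-11) and in DDR-Sen (0.52 ± 0.12, adjusted p = 9.47e-05), and had 0.02 ± 0.09 in PMD-Sen (adjusted p = 0.899). RPS16 was at 7369 and 7633 in Ca2+-Sen and at 5173 and 5012 in DDR-Sen, on either side of the untreated 6288 and 6380, a difference of −0.56 ± 0.12 (adjusted p = 5.10e-05). Limma lost the call of RPS16 in Ca2+-Sen without any of the 4 libraries, and in DDR-Sen without the shallower DDR-Sen or either untreated library.

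Other members also passed the test on day 0. RPL10, which joins the large subunit last, was at 17726 and 18228 in PMD-Sen against 14776 and 14237 in untreated libraries (0.31 ± 0.09, adjusted p = 0.00165) and at 11406 and 12472 in Ca2+-Sen (−0.28 ± 0.08, adjusted p = 0.00149). RPS15 fell in PMD-Sen (−0.24 ± 0.10, adjusted p = 0.0364). In Ca2+-Sen RPL36 went from 3100 and 3258 to 2341 and 2370 (−0.43 ± 0.09, adjusted p = 6.72e-06), RPS2 from 29014 and 29370 to 20597 and 23143 (−0.42 ± 0.08, adjusted p = 1.75e-06) and RPLP0 to 21208 and 23937 (−0.29 ± 0.08, adjusted p = 0.00127). RPL36A was at 40.8 and 39.7 there (−0.96 ± 0.40, adjusted p = 0.0335). RPL36 shares 17.6% of its exon bases with HSD11B1L. RPS28 rose in Ca2+-Sen (0.36 ± 0.10, adjusted p = 0.000549). In DDR-Sen RPS27A went to 5505 and 5774 from 7059 and 7936 (−0.41 ± 0.11, adjusted p = 0.000809), and RPS7 fell by 0.36 on the log2 scale (SE 0.10, adjusted p = 0.00294). RPLP1 rose there (0.28 ± 0.11, adjusted p = 0.039), a call limma lost without the shallower DDR-Sen or either untreated library.

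Tested between the inducers on day 0, 1 member was higher and 7 were lower in DDR-Sen than in PMD-Sen, where 13.6% of all genes were higher and 15% lower. Limma gave 13 lower members, where 30.1% of genes were lower. Between DDR-Sen and Ca2+-Sen 2 were higher and 3 lower in DDR-Sen, where 18.8% of genes were higher and 18.3% lower. Between Ca2+-Sen and PMD-Sen 1 was higher and 10 were lower in Ca2+-Sen, where 18.1% of genes were higher and 20.5% lower. RPL10A, a protein of the L1 stalk, was at 10421 and 10399 in PMD-Sen and at 6563 and 6977 in Ca2+-Sen, a difference of −0.62 ± 0.12 (adjusted p = 1.55e-06).

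In the days between, few members were called. In PMD-Sen 0 rose and 3 fell on day 1 (19.7% of all genes called), 6 rose and 0 fell on day 2 (15.8%), and on days 6 (12.8%) and 8 (11.8%) 0 were called. In Ca2+-Sen 0 rose and 5 fell on day 1 (12.5%), 0 were called on day 2 (4.33%), 1 rose on day 6 (10.2%), and 3 rose and 12 fell on day 8, where 33.3% of all genes were called. The member called on day 6 was RPL7A, whose counts are unsteady. On the way from day 0 to day 1, 1 member rose and 5 fell in PMD-Sen (29% of all genes called), 2 rose and 2 fell in Ca2+-Sen (36.5%) and 0 were called in DDR-Sen (3.54%). From day 0 to day 16, 0 rose and 1 fell in PMD-Sen (28.3%), and 6 rose and 2 fell in Ca2+-Sen (34.4%). For PMD-Sen limma gave 12 falling members, where 32.0% of genes fell, 41 without the shallower day 16 library, 2 without the deeper and 3 without the shallower day 0 library. RPS19 was lower on day 1 than on day 0 of Ca2+-Sen (difference −0.40 ± 0.11, adjusted p = 0.00103), with libraries at 11283 and 12501, and RPL36 was higher on day 16 than on day 0 (difference 0.44 ± 0.12, adjusted p = 0.00189). RPL10 was lower on day 1 than on day 0 of PMD-Sen by −0.45 ± 0.12 (adjusted p = 0.000788).

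The members differed in how far they moved over the 25 comparisons. The narrowest ranges of log2 fold change were those of RPLP2 (0.42), RPL15 (0.48), RPL39 (0.51), RPS24 (0.51) and RPL12 (0.52). RPLP2 was called in none of them. RPL39, a small protein of the exit tunnel, was also never called, whereas RPS24 and RPL12 fell in 4 and 5 comparisons and never rose. Of the tested members RPS19 was called higher most often (7 comparisons) and RPS7 lower most often (9).

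Among the tested members the widest ranges belonged to those with few or unsteady counts, RPS18 (14.6), RPL7A (6.94), RPS9 (3.32), RPS10 (1.85) and RPL36A (1.25). RPS18 was at 5 or below in most libraries, but at 1497 in 1 library of Ca2+-Sen day 4, at 5880 in 1 of Ca2+-Sen day 6 and at 4761 in 1 of DDR-Sen day 3, each time with its partner at 1.71 or less. RPL7A was at 1890 and 8.44 in the libraries of Ca2+-Sen day 6. RPS9 was at 219 and 51.0 in the untreated libraries, and its falls on day 16, to 27.0 and 28.5 in PMD-Sen, 36.7 and 35.2 in Ca2+-Sen and 29.3 and 27.2 in DDR-Sen, were not called by limma. RPL41 was at 8223 and 2050 in the untreated libraries. In 6 members, RPS18, RPL7A, RPS9 and RPL41 among them, the libraries of a group differed by over 4-fold somewhere. The summed level of their pseudogenes was 578% of the member for RPS18, 2100% for RPL7A and 335% for RPS10, and 39.4% of the exon bases of RPS10 are shared with RPS10-NUDT3, so reads of these genes may be split among copies. Without the unsteady members 48 still fell in RS, of 71, and 52 on day 16 of DDR-Sen.

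Features of the genes that the choice of members did not use were set beside these changes, with no test. In RS 27 of 46 large-subunit members fell with a median of −0.44, and 21 of 29 small-subunit members with a median of −0.55. On day 16 of DDR-Sen the medians were −0.38 and −0.51. The 28 members with a small nucleolar RNA gene inside their own gene had medians of −0.46 in RS and −0.42 on day 16 of DDR-Sen, and the other 47 had −0.47 and −0.44. The 49 tested members with a pyrimidine run such as those shown for RPSA and RPLP0 had medians of −0.44 and −0.38, and the 12 without had −0.45 and −0.42. The run was sought at a single RefSeq start of each gene, so these 12 may have it at another start. Members have short mRNAs, with a median length of 681.5 bases. The 1386 other coding genes with a median transcript under 800 bases and a mean of at least 100 had medians of −0.01 in RS and −0.04 on day 16 of DDR-Sen, and 2804 genes with transcripts over 3000 bases had −0.01 and −0.07.

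Genes of the same pathway were read beside the members. Among 19 other TOP translation genes, such as elongation and initiation factors, 5 fell in RS and 8 on day 16 of DDR-Sen, and 0 rose, with medians of −0.35 and −0.28. Of all genes 11.5% and 16.7% fell. RACK1, a scaffold on the small subunit, was at 16171 and 15766 in untreated, 12453 and 11747 in RS and 10487 and 12250 in DDR-Sen day 16 libraries (−0.40 ± 0.14, adjusted p = 0.0171, and −0.49 ± 0.11, adjusted p = 0.000139). EEF1A1, the main elongation factor, changed by −0.38 ± 0.13 in RS (adjusted p = 0.016) and had −0.18 ± 0.10 on day 16 of DDR-Sen (adjusted p = 0.184). TPT1, a translation-linked protein of the same kind of mRNA, had −0.32 ± 0.14 (adjusted p = 0.0712) and −0.22 ± 0.11 (adjusted p = 0.12). HNRNPA1 and NPM1 had the largest changes of this list in RS. HNRNPA1, a splicing factor, went from 15966 and 14544 to 5338 and 5798 in RS (−1.45 ± 0.15, adjusted p = 1.6e-20), and NPM1, a nucleolar chaperone, from 16305 and 16643 to 10242 and 8294 (−0.83 ± 0.17, adjusted p = 2.33e-05). On day 0 of PMD-Sen 8 of the 19 rose and 2 fell, where 19.8% of all genes rose and 20.2% fell. RACK1 was among those that rose (0.46 ± 0.09, adjusted p = 1.19e-06).

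Genes that make ribosomes were read in the same way. Of 33 ribosome biogenesis genes, 25 fell in RS and 25 on day 16 of DDR-Sen, where 11.5% and 16.7% of all genes fell, with medians of −0.59 and −0.52. Of these genes 20 fell on day 16 of PMD-Sen (median −0.52, with −0.47 and −0.54 in its libraries), 12 on day 16 of Ca2+-Sen (−0.29) and 31 on day 8 of Ca2+-Sen (−0.68). The shares of all genes that fell in these comparisons were 11.5%, 6.08% and 17.8%. NCL, the nucleolar protein nucleolin, was at 16615 and 15933 in untreated and at 10644 and 9736 in PMD-Sen day 16 libraries (−0.68 ± 0.13, adjusted p = 4.09e-06, and −0.74 or −0.61 by limma without the deeper or the shallower library), the day on which RPSA was at 12719 and 17155. MYC, which drives ribosome production, rose on day 0 of PMD-Sen (0.54 ± 0.14, adjusted p = 0.000296) and fell on day 0 of Ca2+-Sen (−0.99 ± 0.13, adjusted p = 1.76e-12). FBL and RRN3 had unsteady counts, with 753 and 51.0 for FBL in the untreated libraries, and their falls in RS were not called by limma.

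Of 73 mitochondrial ribosomal proteins, 11 fell in RS and 23 on day 16 of DDR-Sen, with medians of −0.25 and −0.27. The shares of all genes that fell were 11.5% and 16.7%. On day 8 of Ca2+-Sen 34 fell and 0 rose (median −0.30), where 17.8% of all genes fell. On day 0 of Ca2+-Sen 29 fell and 5 rose (−0.25), where 26.5% of all genes fell and 23.6% rose. MRPL23 was the member of this list that rose in RS, at 162 and 140 against 4.92 and 10.5 in untreated libraries (4.33 ± 0.56, adjusted p = 8.38e-13), a call limma lost without any of the 4 libraries. The counts of MRPL23 were unsteady, at 293 and 6.12 on day 2 of Ca2+-Sen and at 14.7 and 429 on day 2 of DDR-Sen. MRPS6 was at 9922 and 10782 on day 0 of Ca2+-Sen against 732 and 678 (3.87 ± 0.10). It shares its locus with SLC5A3, the sodium and inositol transporter gene, so its reads may belong to either.

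**Figure D5:**
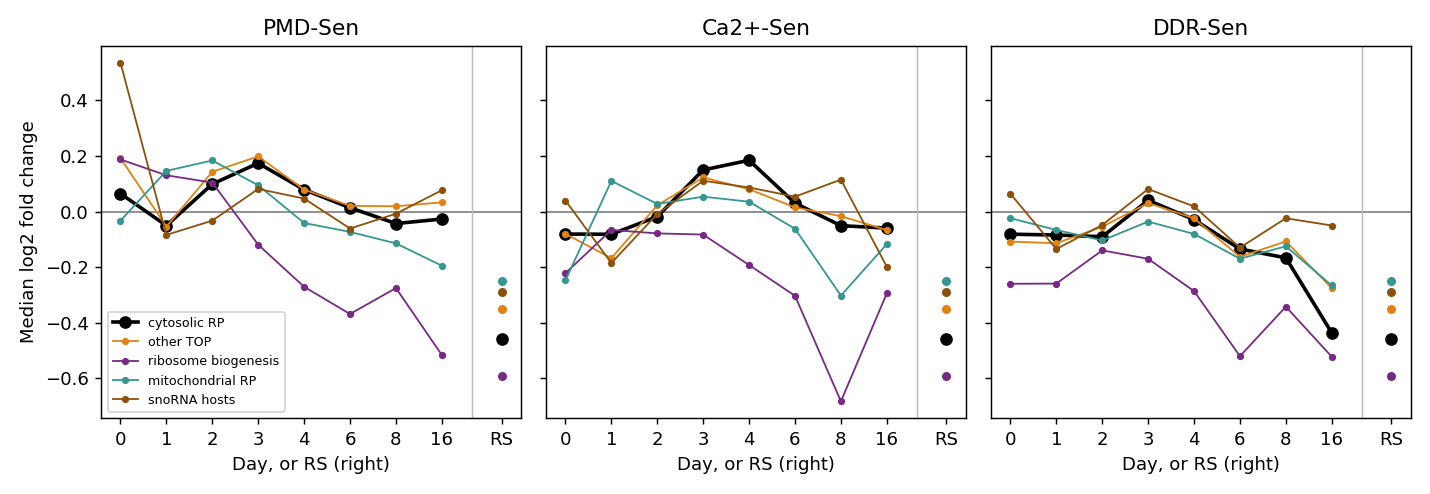
Median log2 fold change of the cytosolic ribosomal proteins (black) and of 4 neighbouring lists against untreated cells, by day (evenly spaced) for each inducer, with RS at the right of each panel. The ribosome biogenesis genes are low on day 16 of PMD-Sen (−0.52) and on day 8 of Ca2+-Sen (−0.68), where the members are at −0.03 and −0.05, and the snoRNA hosts stand at 0.54 on day 0 of PMD-Sen. On day 16 of PMD-Sen the members' single libraries, not drawn here, had medians of −0.25 and 0.18.

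Of 6 tested paralogs of members outside the rule, 3 fell in RS, 5 on day 16 of DDR-Sen and 5 on day 0 of Ca2+-Sen. Among all genes 11.5%, 16.7% and 26.5% fell. RPL22L1, the paralog of RPL22, was at 1040 and 966 in untreated, 315 and 197 in RS and 184 and 248 in DDR-Sen day 16 libraries (−1.97 ± 0.28, adjusted p = 3.84e-11, and −2.22 ± 0.19, adjusted p = 5.77e-30). RPL39L, the paralog of RPL39, went from 190 and 183 to 30.1 and 27.1 in RS (−2.70 ± 0.32, adjusted p = 1.95e-15). RPS27L, a p53 target and the paralog of RPS27, rose on day 0 of DDR-Sen, from 2720 and 3195 to 5090 and 5810 (0.88 ± 0.12, adjusted p = 2.54e-11), when RPS27 was at 4695 and 5536 (0.27 ± 0.12, adjusted p = 0.0912). Among 10 host RNAs of small nucleolar RNAs, which also start with pyrimidines, 6 rose on day 0 of PMD-Sen and 0 fell, with a median of 0.54. Of all genes 19.8% rose and 20.2% fell on that day. GAS5 was at 3347 and 3474 there, above the untreated 2165 and 2231 (0.63 ± 0.11, adjusted p = 2.28e-08), and at 1475 and 1608 in Ca2+-Sen (−0.51 ± 0.10, adjusted p = 2.2e-06). SNHG7 rose in Ca2+-Sen (1.21 ± 0.12, adjusted p = 2.22e-21), and SNHG1 fell in RS (−1.57 ± 0.19, adjusted p = 2.03e-14).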

How the data were processed

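Total RNA was extracted from WI-38 cells, and mRNA was sequenced in 52 libraries of 26 groups. The authors' processing notes name Trim Galore, HISAT2, HTSeq, featureCounts and DESeq2 with GRCh38, and versions are not given in the sources used here. The authors deposited 25 distinct tables, each listed for both libraries of its groups, with the mean normalized count (a signal scaled by size factors), the log2 fold change with its error, the p-value and the adjusted p of each gene. The Wald statistic, a score, was not used. These columns are the authors' own comparison, and the main tests here start from them. The limma fits and library values rest on reads of single libraries recovered from these columns.

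Group levels were computed from the deposited mean and fold change. Of 59408 genes, the 14898 with a mean level of at least 10 over the groups were tested, and the p-values were adjusted over them (Benjamini-Hochberg), with 0.05 as the threshold. A single row (1) that names no gene was dropped. Inducers and days were compared by subtracting the fold changes and dividing by their joint standard error (normal approximation). Whole reads of the single libraries were recovered from the deposited means. Both untreated counts were found for 14888 of 14900 genes. Of 1865 member fold changes recomputed from recovered reads, 1832 lay within 0.001 of the deposited value. That refit took its spread from the deposited standard error. For means printed with fewer digits, the deposited fold change also chose among read pairs where several fitted, so agreement there does not check the recovery. Which replicate a recovered library is was not known. Library values were scaled by 8645 genes with a mean over 200. As an alternative limma was run on log2(normalized count + 1), where fold changes of low genes are understated. Recovery and tests were tested on simulated data. Standard errors printed with a fold change are the authors', from 2 libraries a group.

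The members, gene lists and tests were chosen with earlier results of these data known. Genes were named by a rule that took the largest called rises and falls of the main comparisons, the widest and narrowest ranges, the largest changes of each list and a fixed set of well-known members. RPL10A and RPL41 lie outside this rule and were picked with their values in view. Some genes are not reported here. The software was R 4.3.3 with limma 3.58.1, and Python 3.11.15 with SymPy 1.14.0, SciPy 1.17.1, pandas 2.3.3, NumPy 2.4.6 and matplotlib 3.10.9.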

Additional observations from a re-analysis of the deposited data

Results flagged for a closer look

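Differences between inducers passed the test for some members. On day 0, 8 of 75 members differed between DDR-Sen and PMD-Sen, 5 between DDR-Sen and Ca2+-Sen and 11 between Ca2+-Sen and PMD-Sen, smaller shares than the 28.6%, 37.1% and 38.6% of all genes. On day 16, 14 differed between DDR-Sen and Ca2+-Sen, where 6.38% of all genes did. The largest falls were those of RPL3 in DDR-Sen against PMD-Sen on day 0 (−0.64 on the log2 scale), RPS16 in DDR-Sen against Ca2+-Sen on day 0 (−0.56), RPL10A in Ca2+-Sen against PMD-Sen on day 0 (−0.62) and RPSA in DDR-Sen against Ca2+-Sen on day 16 (−0.70). Groups of 2 libraries are too small for a test of single outlying samples within a group, and the gap between the members' medians in the PMD-Sen day 16 libraries was not tested.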

How the results depend on the processing

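The fall in RS stayed within 1.5 times of its 48 members under every alternative, and the median of the members lay between −0.46 and −0.49 there and between −0.38 and −0.44 on day 16 of DDR-Sen under all alternatives that kept the libraries. The cause of the following changes was not tested. Limma with 1 library left out gave between 32 and 63 falling members on day 16 of DDR-Sen (53 with the deposited errors), 2 to 19 on day 8 (12), 3 to 6 on day 6 (20) and 3 to 4 on day 0 (10). It gave 2 to 31 falling members on day 16 of PMD-Sen (1), 6 to 11 on day 0 of Ca2+-Sen (19) and 0 to 1 on day 16 (5), and 0 to 2 rising members on days 0, 3 and 4 of PMD-Sen (6, 18 and 9) and day 3 of Ca2+-Sen (18), and 1 to 2 on day 4 (19).

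Between groups it gave 8 to 14 lower members for DDR-Sen against PMD-Sen on day 0 (7) and 0 to 64 on day 16 (0), 9 to 60 for DDR-Sen against Ca2+-Sen on day 16 (14), 7 to 16 for Ca2+-Sen against PMD-Sen on day 0 (10) and 0 to 16 on day 16 (0). Between days it gave 2 to 41 for PMD-Sen day 16 (1), 1 to 4 for Ca2+-Sen day 1 (2) and 18 to 58 for DDR-Sen day 16 (17), each against day 0.

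With all libraries limma gave 3, 10 and 5 rising members on days 0, 3 and 4 of PMD-Sen, 3 and 8 on days 3 and 4 of Ca2+-Sen, and 5, 1 and 12 falling members on day 16 of PMD-Sen, day 16 of Ca2+-Sen and day 6 of DDR-Sen. For lower members between groups it gave 13 (DDR-Sen against PMD-Sen, day 0), 45 (day 16), 55 (DDR-Sen against Ca2+-Sen, day 16), 12 (PMD-Sen day 16 against day 0), 4 (Ca2+-Sen day 1 against day 0) and 49 (DDR-Sen day 16 against day 0). For Ca2+-Sen day 1 against day 0 limma called 28.9% of all genes lower. The other shares of all genes stand with the results above.

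With no minimum level, 3 and 5 members rose on days 0 and 4 of PMD-Sen, 10 and 9 on days 3 and 4 of Ca2+-Sen, and 7 fell on day 8 of DDR-Sen. The differences then held 1 (DDR-Sen against Ca2+-Sen, day 0), 6 (Ca2+-Sen against PMD-Sen, day 0), 7 (DDR-Sen against Ca2+-Sen, day 16), 3 (PMD-Sen day 1 against day 0) and 0 (PMD-Sen day 16 against day 0) lower members. With library totals as size factors, 12 rose on day 0 of PMD-Sen, and 6 (Ca2+-Sen against PMD-Sen, day 0) and 4 (DDR-Sen against Ca2+-Sen, day 16) were lower. With the median of the other genes at 0 the first of these was also 6. On day 16 of PMD-Sen 0 fell with a minimum level of 100 and without the unsteady members, and on day 8 of DDR-Sen 7 fell without members with pseudogenes.

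Over the named genes, 1902 values kept direction and call with all libraries, 49 lost and 39 gained a call, and 0 reversed. With 1 library left out, 1121 kept both, 153 lost and 70 gained a call, and 0 reversed. No paired analysis was possible because the recovered libraries carry no replicate number. Limma and left-out libraries were not run for DDR-Sen day 1. Leaving out unsteady members and the alternatives of the day comparisons were chosen after seeing the data. With 2 libraries a group, small changes could not be told from the spread between libraries.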
